A study of Mus musculus with 11 samples.

Results

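The arthritis effect shared by regular and high-fat diet was described in DBA/1 mice, in the synovial membrane. Mice of this strain develop collagen-induced arthritis (CIA), an inflammatory joint disease raised by immunisation against type II collagen. RNA was sequenced from 11 libraries, and all 11 of the 11 in the series enter here. On the regular diet there were 3 libraries of sham controls and 3 of arthritic mice, and on the high-fat diet 2 and 3. All share the DBA/1 background and the tissue, and the labels list no transgene and no drug. The groups follow the titles and treatment labels. The growth notes conflict with them, giving a regular diet for all 11, so each statement on a diet rests on the treatment labels. Age and sex are not given in the labels used here, and neither is the time of collection or whether replicates are separate mice. The p-values therefore measure the spread between these libraries, which may be technical. The effect was taken as the mean of 2 contrasts, CIA minus sham on the regular diet and CIA minus sham on the high-fat diet, each with a weight of 0.5. These contrasts have no library in common, but share the scaling and the estimate of spread. Levels are counts-per-million (CPM), and those of a group are given in the order of replicates a, b and c.

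The synovial membrane lines the joint cavity, with a thin layer of lubricant-secreting fibroblasts and macrophages over a looser layer of fibroblasts, vessels and fat. In CIA, antibodies and T cells against collagen bring in neutrophils and monocytes, and cytokines of these cells drive fibroblasts to secrete proteases and to raise the osteoclast factor RANKL. Fat in the joint is part of the same tissue block, so genes of adipocytes are measured with those of the lining. In bulk tissue, fewer cells of a type and less RNA per cell cannot be told apart.

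Averaged over both diets, 3542 of 14892 genes tested (23.8%) passed an adjusted p of 0.05 in edgeR's quasi-likelihood test. Of these, 1929 were higher in CIA (13% of genes tested) and 1613 were lower (10.8%). The log2 fold change was at least 1 in size for 947 of the higher and 522 of the lower genes. Of the called genes, 3533 (99.7%) had the same sign on both diets, against 77.8% of all genes tested. A large average favours equal signs, so nothing is read from that share. In 2243 of them (63.3%) the CIA libraries lay beyond all sham libraries on each diet in the same direction, against 18.4% of all genes tested. These were 1140 higher genes (background 8.98%) and 1103 lower genes (background 9.41%). Being called favours such a separation too, so nothing is read from these shares either. The median log2 fold change of all genes tested was 0.04, with 0.06 on the regular and 0.02 on the high-fat diet.

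**Figure D1:**
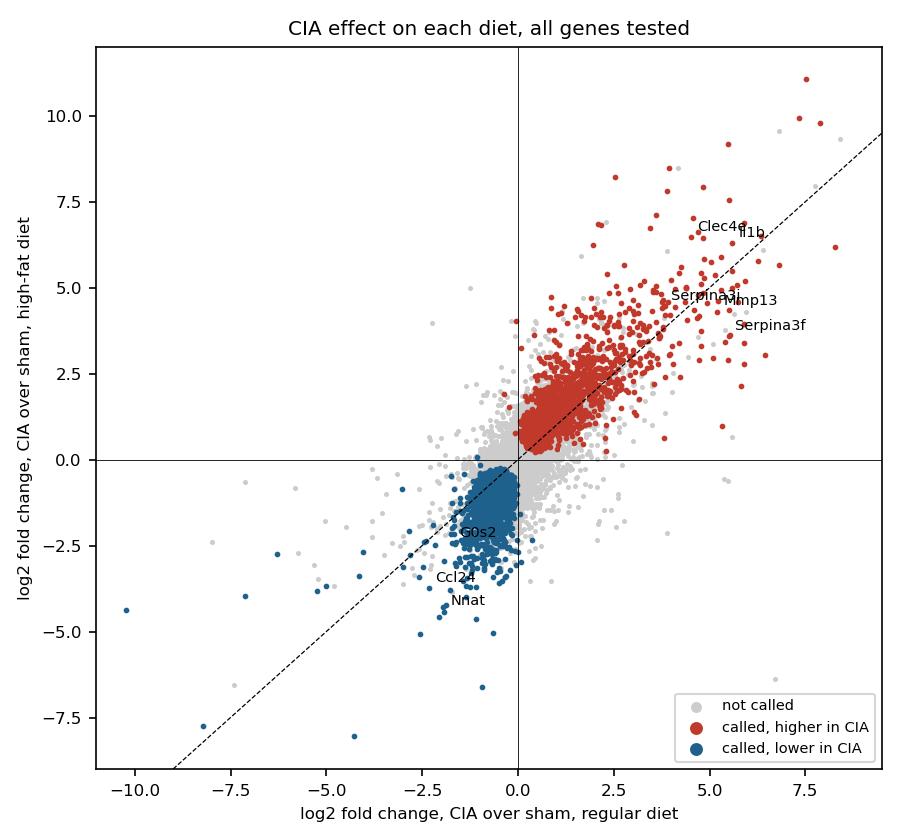
Each point is 1 of the 14892 genes tested, with its log2 fold change of CIA over sham on the regular diet (x axis) and on the high-fat diet (y axis). The dashed line marks equal change, red and blue points are the 1929 higher and 1613 lower called genes, and 3533 of these 3542 lie in the quadrants of equal sign.

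Taken alone, the regular diet gave 4 called genes (0.0269% of those tested), with Serpina3i, Serpina3g and Serpina3f among them and 2579 at an unadjusted p under 0.05. The high-fat diet alone gave 1610 (10.8%). All 4 regular-diet genes were called and higher on the high-fat diet too. They make up all of the regular-diet list and are 4 of the 1610 on the high-fat diet. Of the genes called for the average, 1970 were called on neither diet alone. The authors' deposited table, made with another test, lists 445 genes at a q-value under 0.05 on the regular diet and 3488 on the high-fat diet. The authors' deposited table has 317 genes in both lists (71.24% and 9.09% of each), all 317 with the same sign, 216 higher and 101 lower. All 317 were called here in that direction. Both sets of calls come from the same libraries, so nothing is read from that overlap.

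The number of calls depended on single libraries, above all on the 2 high-fat sham libraries. Without high-fat sham replicate b, 2 genes, Serpina3i among them, stayed under an adjusted p of 0.05 in edgeR, although 4102 had an unadjusted p under 0.05 and 1879 an adjusted p under 0.1. DESeq2 called 2669 and limma voom 1 without that library. Without high-fat sham replicate a edgeR called 1236. Leaving out regular-diet sham replicate a left 1967 calls and leaving out replicate b of that group left 2231. The remaining 7 fits gave 2440 to 4347. Without high-fat sham replicate b all 3542 called genes kept their direction. The median ratio to the log2 fold change over all libraries was 0.97, and the median SE was 0.24 in place of 0.20. These genes were called for a large average over libraries that mostly enter that fit too. This favours equal directions, so nothing is read from them. In 10 or more of the 11 such fits 1142 genes were called, 513 higher and 629 lower.

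**Figure D2:**
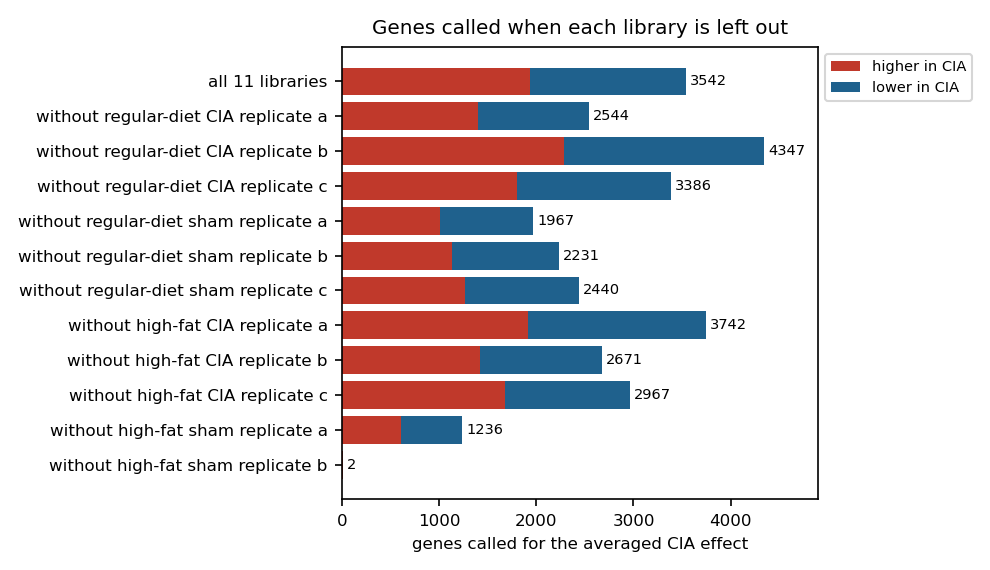
Bars give the number of genes called for the averaged effect (x axis), split into higher and lower in CIA, over all 11 libraries and with each library left out in turn (y axis). The count is 3542 over all libraries, between 1236 and 4347 in 10 of the 11 fits, and 2 without high-fat sham replicate b.

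Library totals were 13677638 to 17631167 counts. Regular-diet CIA replicate b stood apart from a and c, the chi-square of the counts divided by its degrees of freedom being 218.9 and 265.8 against 29 between a and c. The same held for high-fat CIA a against b and c (160.6 and 153.5 against 66.3 between b and c). Values without a library are given below beside several results that it moves. Without high-fat sham b at most 1 gene of any list stayed called. Genes of the synovial lining were measured in every library. Prg4, which codes for the joint lubricant lubricin, had 7780, 8250 and 8600 in regular-diet sham, 6060, 3980 and 9400 in regular-diet CIA, 15200 and 20700 in high-fat sham and 8540, 8280 and 17600 in high-fat CIA libraries. The log2 fold change of Prg4 was -0.49 ± 0.32 SE (adjusted p = 0.275), so it was not called. Of the other lining and sublining fibroblast markers checked, Pdgfra rose (0.83 ± 0.16 SE (adjusted p = 0.0101)), while Cd55, Htra4, Clic5, Thy1 and Pdpn were not called. Htra4 and Clic5 were lowest in regular-diet CIA b (48.3 and 33 CPM) and high-fat CIA a (40 and 22.5 CPM). The macrophage marker Adgre1 rose (0.94 ± 0.30 SE (adjusted p = 0.0497)), and Cd68 had 0.92 ± 0.35 with an adjusted p of 0.0783.

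Of the summed markers of other tissues given here, only those of adipocytes lay apart between sham and CIA on both diets. The summed level of 24 skeletal muscle genes was 112 to 1470 CPM in regular-diet sham and 80.7 to 113 in regular-diet CIA, and 173 to 380 in high-fat sham against 60.8 to 120 in high-fat CIA. The median log2 fold change of the muscle list was -2.86, or -0.67 without regular-diet sham c. For 18 adipocyte genes the sums were 35400 to 46200 and 9950 to 32000 CPM on the regular diet, and 19100 to 22700 and 2170 to 8160 on the high-fat diet. The 13 erythroid genes summed to 2720 to 7360 CPM in regular-diet sham and 298 to 1540 in CIA, and to 1300 to 6180 in high-fat sham and 137 to 1650 in CIA. The 13 markers of marrow granulocyte precursors overlapped between sham and CIA on both diets (72.1 to 174 against 131 to 517 CPM, and 34.7 to 1570 against 202 to 3870 CPM). Keratinocyte genes summed to 9.7 to 27.5 CPM over all libraries, with Krt10 the 1 of 3 tested that fell (-0.86 ± 0.19) and Krt15 and Krtdap at 0 in all libraries, and no matched marker of the other cell type lists was at 0 throughout. With the mean level of the muscle list as a covariate 707 genes were called, 701 of them among the 3542. With that of the adipocyte list 3274 were called, 1360 of them among the 3542. Of the 55 list medians 13 changed sign with the adipocyte covariate and 3 with the muscle covariate (cathepsins, skeletal muscle and marrow granulocyte precursors). Each covariate is the mean of its own list and so holds that list's median near 0. Nothing is read from the changed sign of the muscle list. The part of these tissues in the results below was not tested.

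Rising genes were ranked among called genes with a symbol, a mean log2 CPM of at least 1 and no overlap on either diet. Serpina3i and Ifi44 were among those with the smallest p-values. Serpina3i codes for a secreted serine protease inhibitor (chr12:104263045-104269509, RefSeq GRCm38.p6, as all positions here) and had 1.27, 1.14 and 1.57 in regular-diet sham, 20.6, 23.2 and 13.1 in regular-diet CIA, 1.92 and 1.05 in high-fat sham and 47.1, 25.4 and 26.4 in high-fat CIA libraries. No overlap was a condition of that ranking. The change of Serpina3i was 4.14 ± 0.30 SE (adjusted p = 0.000586), with 3.83 ± 0.38 on the regular diet and 4.46 ± 0.46 on the high-fat diet. Its adjusted p was 0.000984 to 0.0154 over the 11 fits that leave out a library. Ifi44, an interferon-induced gene (chr3:151730922-151749910), had 3.82, 5.33 and 3.34 in regular-diet sham, 20.1, 23.4 and 16.9 in regular-diet CIA, 5.72 and 3.56 in high-fat sham and 19.7, 33.2 and 21.4 in high-fat CIA libraries. Its change was 2.34 ± 0.23 SE (adjusted p = 0.00467).

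Serpina3f and Serpina3g lie beside Serpina3i (chr12:104214544-104221129 and chr12:104236147-104241939). Serpina3g levels were 5.57, 2.86 and 2.16 in regular-diet sham, 81.3, 47.3 and 32.9 in regular-diet CIA, 6.14 and 2.92 in high-fat sham and 39.3, 39.3 and 33.9 in high-fat CIA libraries, and the change was 3.49 ± 0.36 SE (adjusted p = 0.00467). Serpina3f had the larger change, 4.54 ± 0.48 SE (adjusted p = 0.00467), from at most 0.381 CPM in regular-diet sham and 0.801 in high-fat sham to at least 5.76 in any CIA library. Regular-diet CIA replicate a was highest of all libraries for both. These neighbours are similar in sequence, so the split of reads between them is uncertain. The same holds below for the Hba, Hbb, Tgtp, Iigp, Gbp, H2, Slfn, Sirpb, Cd209, Mcpt and Oas families. Of the 17 tested genes of the acute-phase and Serpina3 list 6 rose and 1 fell. Saa3, a serum amyloid made in inflamed tissue, had 1.59, 2.03 and 0.328 in regular-diet sham, 4.99, 635 and 0.9 in regular-diet CIA, 0.32 and 0.409 in high-fat sham and 604, 74.1 and 410 in high-fat CIA libraries. It overlapped on the regular diet, where 1 CIA library was far above the others, and its change was 8.64 ± 1.92, or 5.55 without regular-diet CIA b. Ptx3, a long pentraxin, rose by 4.24 ± 1.21, but had 2.42 and an adjusted p of 0.0517 without that library (0.0204 to 0.152 over the 11 fits that leave one out). The other 4 that rose were Serpina3f, Serpina3i, Serpina3g and Lcn2, and Lcn2 (lipocalin 2) changed by 2.02 ± 0.60, or 3.27 without high-fat sham a. Serpina3c fell (-1.50 ± 0.43). Saa3, Ptx3 and Serpina3c, like other genes given below to complete a small count, lie outside the rule for naming genes and were chosen after their values were seen.

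Falling genes were ranked among called genes with a symbol, a mean log2 CPM of at least 1 and no overlap on either diet. The smallest p-values were those of Podn, Kctd2 and Tmem205. Podn codes for podocan, a small leucine-rich proteoglycan of the matrix (chr4:108014793-108031954), and had 153, 183 and 188 in regular-diet sham, 120, 122 and 126 in regular-diet CIA, 182 and 196 in high-fat sham and 48.1, 54.1 and 60.4 in high-fat CIA libraries. No overlap was a condition of that ranking, and the change of Podn was -1.16 ± 0.11 SE (adjusted p = 0.00467). The fall was -0.51 ± 0.15 on the regular diet and -1.80 ± 0.16 on the high-fat diet. Kctd2, an adaptor of ubiquitin ligases (chr11:115420094-115431274), had 60.1, 63.8 and 53.1 in regular-diet sham, 36.5, 39.3 and 41.9 in regular-diet CIA, 64.6 and 69.7 in high-fat sham and 21.6, 24.5 and 28 in high-fat CIA libraries and changed by -1.02 ± 0.11 SE (adjusted p = 0.00467). Tmem205, a membrane protein gene (chr9:21921009-21927535), changed by -1.48 ± 0.16 SE (adjusted p = 0.00476).

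Promoters of 5 genes among those with the smallest p-values are shown from RefSeq GRCm38.p6, to set a shared piece of sequence in the Serpina3 genes beside the others. Each is 5′ to 3′ on the gene's strand, 250 bases before to 50 after the start in RefSeq's promoter table, a start that for Serpina3i and Kctd2 lies inside the annotated gene. Capitals mark a match to the STAT motif TTCNNNGAA. The windows are chr12:104262872-104263171 (plus strand), chr12:104235897-104236196 (plus), chr3:151749861-151750160 (minus), chr4:108031905-108032204 (minus, the first of 2 entries) and chr11:115419876-115420175 (plus).
Serpina3i: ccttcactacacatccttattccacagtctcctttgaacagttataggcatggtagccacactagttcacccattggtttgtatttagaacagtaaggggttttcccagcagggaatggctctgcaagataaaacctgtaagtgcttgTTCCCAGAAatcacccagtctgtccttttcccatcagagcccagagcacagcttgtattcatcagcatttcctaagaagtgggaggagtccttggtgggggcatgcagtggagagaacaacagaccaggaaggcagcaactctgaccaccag
Serpina3g: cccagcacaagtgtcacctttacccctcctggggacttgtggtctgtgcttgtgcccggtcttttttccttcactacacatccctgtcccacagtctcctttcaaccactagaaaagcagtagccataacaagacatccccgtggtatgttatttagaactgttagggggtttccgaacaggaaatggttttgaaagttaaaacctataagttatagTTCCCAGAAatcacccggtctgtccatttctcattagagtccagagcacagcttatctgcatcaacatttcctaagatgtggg
Ifi44: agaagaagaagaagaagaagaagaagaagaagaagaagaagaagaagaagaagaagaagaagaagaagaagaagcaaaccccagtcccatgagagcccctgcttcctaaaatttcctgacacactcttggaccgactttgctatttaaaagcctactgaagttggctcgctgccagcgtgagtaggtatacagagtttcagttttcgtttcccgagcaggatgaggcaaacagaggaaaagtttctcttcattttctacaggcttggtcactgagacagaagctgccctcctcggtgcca
Podn: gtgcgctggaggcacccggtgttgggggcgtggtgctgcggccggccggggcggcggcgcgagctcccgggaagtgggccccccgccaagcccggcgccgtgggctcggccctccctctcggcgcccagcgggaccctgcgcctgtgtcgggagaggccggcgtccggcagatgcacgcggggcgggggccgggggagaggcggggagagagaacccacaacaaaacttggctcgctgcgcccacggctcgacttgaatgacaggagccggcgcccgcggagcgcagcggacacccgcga
Kctd2: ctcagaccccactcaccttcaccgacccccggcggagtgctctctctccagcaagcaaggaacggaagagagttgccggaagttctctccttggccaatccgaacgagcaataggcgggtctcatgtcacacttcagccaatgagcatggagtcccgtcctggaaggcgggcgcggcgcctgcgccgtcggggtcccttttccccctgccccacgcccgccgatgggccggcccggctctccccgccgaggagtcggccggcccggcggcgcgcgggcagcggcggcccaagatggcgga
Serpina3i and Serpina3g each held 1 match, the same letters TTCCCAGAA, starting at position -102 and -33 from the start. No other searched motif matched in the 5 windows, on either strand. Those were NF-kappa-B (GGGA, any base, TT, any base and CC), ISRE (GAAA, any 2 bases and GAAA), AP-1 (TGANTCA), C/EBP (TTGCNNAA) and a TATA box (TATAAA). Of 32851 promoters of this length 8.3% held the STAT motif, 1.2% NF-kappa-B, 3.4% ISRE, 7.8% AP-1, 10.8% C/EBP and 13.6% TATAAA. The GC content was 48.3% for Serpina3i, 45.7% for Serpina3g and 45.3% for Ifi44, and 77% for Podn and 69.7% for Kctd2. A match is a description of letters and not of binding.

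**Figure D3:**
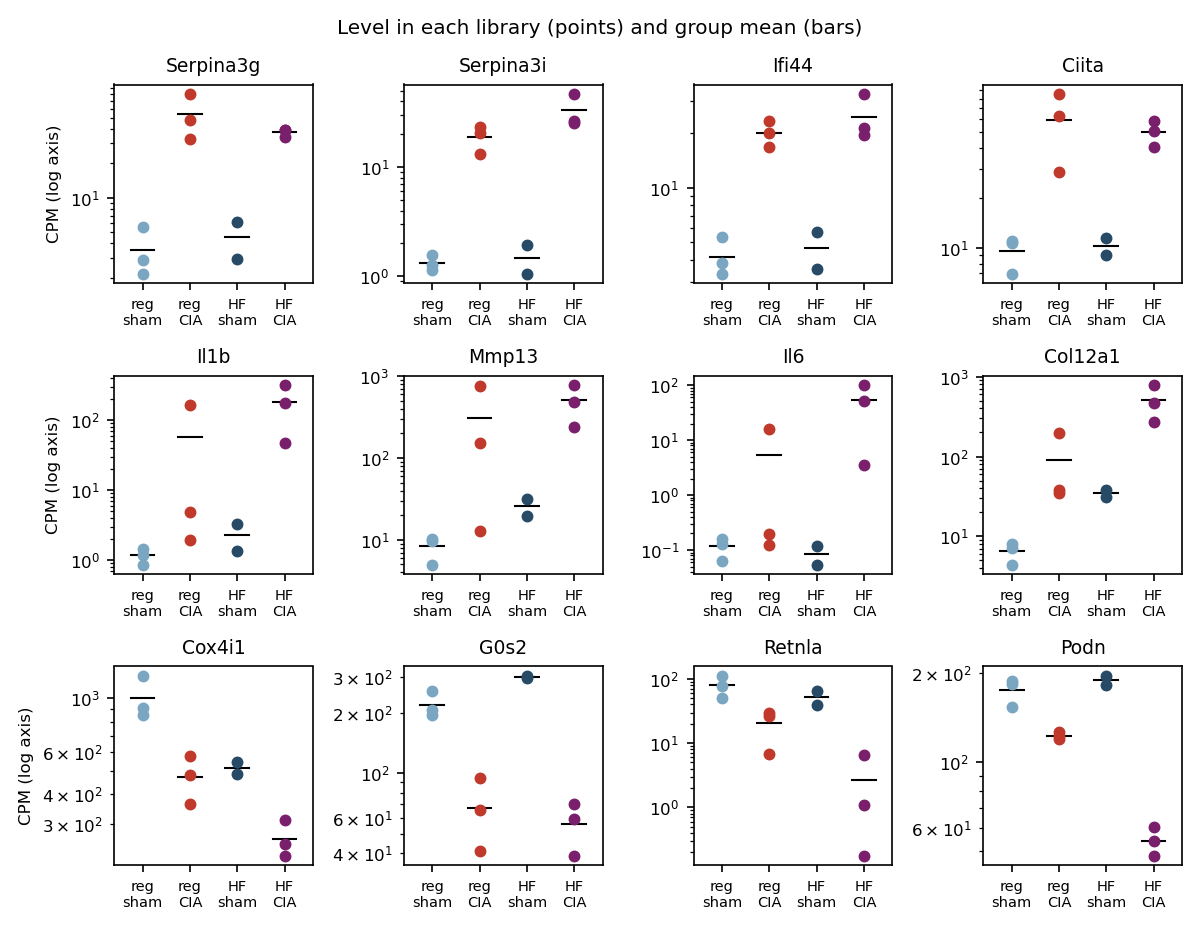
Each panel is a gene, with the CPM of every library (points, log axis) and the group mean (bars) in regular-diet (reg) and high-fat (HF) sham and CIA. Serpina3g, Serpina3i, Ifi44 and Ciita separate CIA from sham on both diets, while Il6 overlaps between sham and CIA on the regular diet.

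Most genes of the GTPase and MHC class II lists were called higher. Interferon-gamma, a cytokine of T and natural killer cells, induces GTPases that guard against intracellular pathogens, and MHC class II molecules, which present peptides to CD4+ T cells. Of 17 GTPase genes tested 15 passed the test, all of them higher, with a median log2 fold change of 1.74 (2.02 on the regular and 1.39 on the high-fat diet). Of all genes tested 13% were called higher. Iigp1 had 27.5, 29.2 and 28.7 in regular-diet sham, 463, 173 and 253 in regular-diet CIA, 23.6 and 28.3 in high-fat sham and 40.3, 226 and 232 in high-fat CIA libraries. Its lowest CIA library, high-fat CIA a, was still above all sham libraries, and the change was 3.03 ± 0.47 SE (adjusted p = 0.00634). In the list 10 of 17 were higher without overlap on either diet, against 8.98% of all genes tested. In high-fat CIA a, the called genes Gbp2, Gbp4, Gbp8, Gbp9 and Igtp, named after their values were seen, were below the high-fat sham libraries. Tgtp1 (2.97 ± 0.43) and Gbp3 (1.54 ± 0.23) rose as well. Without regular-diet CIA b the list median was 1.81 with the same count of 15.

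All 10 tested MHC class II genes rose, with a median of 1.07 (1.21 and 0.98 by diet). Of these 9 were higher without overlap on either diet, against 8.98% of all genes tested. Ciita, the master regulator of these genes, had 6.92, 10.6 and 10.9 in regular-diet sham, 63.1, 85.8 and 28.8 in regular-diet CIA, 11.4 and 9.05 in high-fat sham and 58.5, 40.5 and 50.9 in high-fat CIA libraries. It separated CIA from sham on both diets with 2.46 ± 0.29 SE (adjusted p = 0.00523). H2-Aa, which codes for the alpha chain of a class II heterodimer, had 185, 177 and 213 in regular-diet sham, 648, 555 and 364 in regular-diet CIA, 246 and 221 in high-fat sham and 577, 460 and 484 in high-fat CIA libraries, and its change was 1.28 ± 0.18 SE (adjusted p = 0.00585). H2-Ab1, the partner chain, rose by 1.25 ± 0.22. Of 17 genes of MHC class I and the immunoproteasome 3 passed the test, all higher, near the 13% of all genes called higher. The median was 0.12 (0.00 without high-fat CIA b to 0.21 without high-fat CIA a). The 3 were the peptide transporter gene Tap1 (0.99 ± 0.15), the class I regulator Nlrc5 (1.28 ± 0.21) and H2-Q7 (0.67 ± 0.21). Of 20 interferon-stimulated genes that respond mainly to type I interferon 8 passed the test, all higher, with a median of 0.84, or 0.49 without high-fat CIA replicate b. They include the nucleic acid sensor genes Zbp1 (2.31 ± 0.36) and Oas3 (4.13 ± 0.72).

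Innate receptors rose in most members of their list. Of 23 pattern recognition receptors and their partners tested (of 24 listed), 19 passed the test, all higher, with a median of 2.02 (1.68 on the regular diet, or 0.86 without CIA b, and 2.41 on the high-fat diet). Clec4e, a myeloid lectin receptor for damaged cells and mycobacterial lipid, had 0.159, 0.571 and 0.393 in regular-diet sham, 2.59, 22 and 2.38 in regular-diet CIA, 1.66 and 0.117 in high-fat sham and 57.7, 163 and 18.9 in high-fat CIA libraries. No library overlapped between sham and CIA, but regular-diet CIA b was far above a and c. The change was 5.49 ± 1.02 SE (adjusted p = 0.00875), or 4.56 without that library. The Toll-like receptor genes Tlr1 (3.22 ± 0.41), Tlr8 (1.54 ± 0.22) and Tlr13 (2.02 ± 0.32) rose. Trem1, which amplifies Toll-like receptor signals in neutrophils and monocytes, had 0, 0.381 and 0 in regular-diet sham, 1.26, 12.8 and 1.09 in regular-diet CIA, 1.76 and 0.234 in high-fat sham and 33.4, 82.6 and 10.8 in high-fat CIA libraries and rose by 5.26 ± 1.11 SE (adjusted p = 0.0122). Of 12 Fc receptor and adapter genes, which read antibody bound to antigen, 9 rose and 1 fell, Fcgrt (-0.85 ± 0.23), a receptor that recycles IgG. The list median was 1.23, with 0.88 on the regular (0.31 without CIA b) and 1.61 on the high-fat diet. Fcgr4, an activating IgG receptor of mice, had 0.318, 0.444 and 0.59 in regular-diet sham, 5.24, 8.51 and 5.27 in regular-diet CIA, 1.34 and 0.35 in high-fat sham and 7.27, 20.2 and 8.59 in high-fat CIA libraries. Its groups lay apart on both diets, with 3.80 ± 0.46 SE (adjusted p = 0.00523). Of 19 complement genes 4 passed the test, all higher, against 13% of all genes called higher. The median was 0.10 (-0.05 without high-fat CIA c to 0.22 without high-fat CIA a). All 4 were receptors or receptor chains, C3ar1 (1.31 ± 0.18), C5ar1 (1.62 ± 0.34), Itgam (1.85 ± 0.31) and Itgax (1.84 ± 0.47).

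Calls among cytokine genes were all higher, with wide differences between libraries of a group. Of 15 inflammatory cytokine genes tested (of 18 listed) 7 passed the test, all higher, with a median of 1.62 (2.60 without high-fat CIA b). By diet the median was 1.04 on the regular diet, or 0.05 without CIA b, and 2.21 on the high-fat diet. Il1b, which codes for interleukin-1 beta, a driver of joint inflammation, had 1.19, 1.46 and 0.852 in regular-diet sham, 4.8, 163 and 1.93 in regular-diet CIA, 3.26 and 1.34 in high-fat sham and 174, 323 and 47.7 in high-fat CIA libraries. Sham and CIA did not overlap within a diet, yet regular-diet CIA a and c were at 4.8 and 1.93 CPM, the latter below high-fat sham a. The log2 fold change of Il1b was 5.94 ± 1.29 SE (adjusted p = 0.0133), with 5.58 ± 1.61 on the regular diet and 6.29 ± 1.92 on the high-fat diet, and the average was 3.91 without regular-diet CIA b. Il1rn, the antagonist of the same receptor, rose too (5.40 ± 1.24). Il6, the gene of interleukin-6, had 0.159, 0.0635 and 0.131 in regular-diet sham, 0.126, 16 and 0.193 in regular-diet CIA, 0.0534 and 0.117 in high-fat sham and 52.6, 3.56 and 103 in high-fat CIA libraries. On the regular diet it overlapped, with a and c at sham level. Its call (7.32 ± 1.67 SE (adjusted p = 0.0155)) was lost without regular-diet CIA b (4.81, adjusted p = 0.0613, range over the 11 fits 0.0113 to 0.0923). Tnf was not called (1.35 ± 0.59 SE (adjusted p = 0.116)), at 0.852 to 2.94 CPM in sham and 1.99 to 17.1 in CIA.

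Of 26 chemokine genes 12 passed the test, all higher, with a median of 2.26 (1.91 and 2.87 by diet). Without regular-diet CIA b the median was 1.43, with 0.49 on the regular diet. Ccl8, an attractant of monocytes and T cells, had 5.65, 2.73 and 3.87 in regular-diet sham, 28.6, 66.5 and 11.1 in regular-diet CIA, 2.14 and 2.04 in high-fat sham and 50.5, 38.6 and 32.7 in high-fat CIA libraries. Every CIA library was above the sham libraries of its diet, by 3.70 ± 0.46 SE (adjusted p = 0.00523). Cxcl3 (6.43 ± 1.37) draws neutrophils and Cxcl10 (2.62 ± 0.56) T cells, and both rose from levels near 0 in sham. Cxcl3, and below Grem1 and Dcstamp, had 3 or fewer counts over the regular-diet sham libraries together, as Il6 had in high-fat sham, so the sizes of their fitted changes depend on the prior count. Ccl24, an eotaxin, fell, as described with the resident macrophage genes. The median of the 26 cytokine receptor and adapter genes was 1.27. By diet it was 0.88 on the regular (0.30 without CIA b) and 1.49 on the high-fat diet. Of these 26 genes 14 passed the test, all higher. These include Csf2rb (1.27 ± 0.18), a receptor chain for GM-CSF, Il13ra1 (1.42 ± 0.25) and Il6st (0.98 ± 0.17), the signal chain of the interleukin-6 family, whose level went from 222 ± 39.2 to 404 ± 59.5 on the regular diet and from 262 ± 27.4 to 558 ± 110 on the high-fat diet (SD, n = 3, 3, 2 and 3). The kinase genes Jak1 (0.60 ± 0.11) and Jak2 (1.00 ± 0.20) rose, among 6 of 16 genes called higher in the STAT and SOCS list. Of 16 NF-kappa-B genes 6 passed the test, all higher. They include the subunit genes Rel (1.33 ± 0.25) and Nfkb1 (0.64 ± 0.13) and the feedback inhibitor gene Tnfaip3 (1.13 ± 0.23). The list median was 0.96, 0.58 without regular-diet CIA b and -0.21, the other sign, with the adipocyte covariate. On the regular diet it was 0.73, or -0.01 without CIA b, and on the high-fat diet 1.27.

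**Figure D4:**
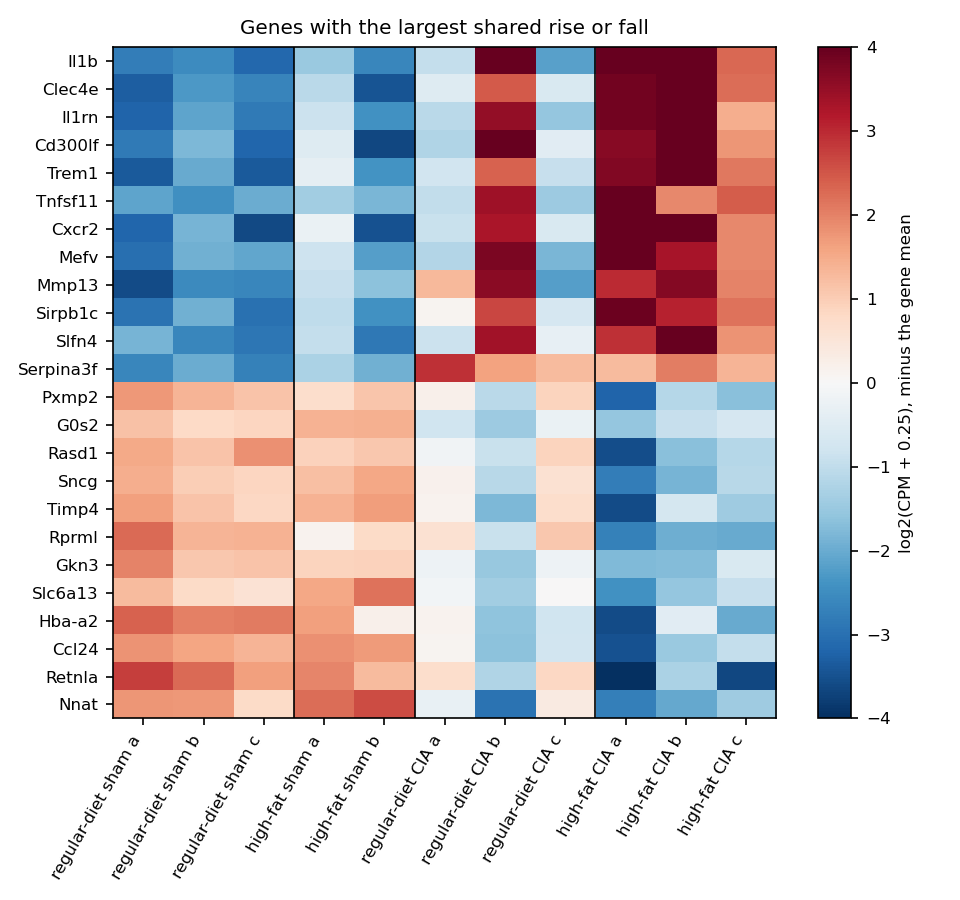
Rows are the 12 genes with the largest shared rise and the 12 with the largest shared fall. They were ranked among called genes with a mean log2 CPM of at least 1 and no overlap on either diet. Columns are the 11 libraries, and colour is log2(CPM + 0.25) minus the gene's mean over libraries, limited to -4 and 4. Regular-diet CIA replicates a and c lie nearer to sham than replicate b and the high-fat CIA libraries for most of these genes.

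Every gene called in the neutrophil list, the macrophage and monocyte list and the T and natural killer cell list rose. The separate list of resident macrophages, given below, had 6 falls and 1 rise. Of 15 neutrophil genes tested (of 17 listed) 7 passed the test, all higher, with a median of 2.86. Of 17 macrophage and monocyte genes 10 passed it, all higher, with a median of 1.29. The macrophage median was 1.34 on the regular diet, or 0.32 without CIA b, and 1.23 on the high-fat diet. Cxcr2, the neutrophil receptor for CXC chemokines, had 0.716, 2.16 and 0.459 in regular-diet sham, 4.48, 83.2 and 5.46 in regular-diet CIA, 7.05 and 0.526 in high-fat sham and 158, 202 and 33 in high-fat CIA libraries. High-fat sham a held more than the other sham libraries and still less than any high-fat CIA library, and the change was 4.94 ± 1.12 SE (adjusted p = 0.0152). Without high-fat sham a the neutrophil median was 4.96. Summed neutrophil levels were 49.8 to 189 CPM in regular-diet sham, 312 to 1210 in regular-diet CIA, 28 to 1260 in high-fat sham and 1000 to 6110 in high-fat CIA, so they overlapped on the high-fat diet. In the list of marrow granulocyte precursors 1 of 13 passed the test, Lcn2. Ccr2, the receptor that brings monocytes out of marrow, had 27.6, 28.8 and 20.2 in regular-diet sham, 140, 227 and 68.8 in regular-diet CIA, 70.8 and 38.5 in high-fat sham and 517, 276 and 304 in high-fat CIA libraries. It separated CIA from sham on both diets by 2.63 ± 0.35 SE (adjusted p = 0.00562). The scavenger receptor gene Msr1 rose by 2.51 ± 0.50.

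Of 21 T and natural killer cell genes tested (of 24 listed) 12 passed the test, all higher, with a median of 1.56 (1.58, or 1.05 without CIA b, on the regular and 1.80 on the high-fat diet). Summed, they were 10.4 to 11.8 CPM in regular-diet sham and 20.9 to 51.2 in CIA, and 9.4 to 20.8 in high-fat sham and 33.2 to 66.1 in CIA. Il2rb, a receptor chain for interleukin-2 and interleukin-15, had 1.03, 1.84 and 1.25 in regular-diet sham, 6.25, 4.91 and 5.85 in regular-diet CIA, 1.92 and 1.52 in high-fat sham and 6.11, 9.28 and 4.5 in high-fat CIA libraries and rose by 1.99 ± 0.28 SE (adjusted p = 0.00562). The T cell genes Cd3g (3.12 ± 0.59) and Cd4 (2.95 ± 0.63) rose from low levels. Of 13 dendritic cell genes 4 passed the test, all higher, Itgae (1.37 ± 0.29), Flt3 (2.11 ± 0.46), Itgax (1.84 ± 0.47) and Sirpa (0.83 ± 0.25). Of 16 B and plasma cell genes 2 rose and 1 fell, the rises near the 13% of all genes and the falls under the 10.8%. The 2 that rose were Prdm1 (1.86 ± 0.53, or 1.20 without high-fat CIA a) and Sdc1 (1.20 ± 0.35), both of which cells other than plasma cells also express, and the plasma cell receptor gene Tnfrsf17 fell with no count in any high-fat CIA library. Adhesion genes by which leukocytes leave vessels rose in 9 of 15 tested members (of 16 listed), the other members not passing the test. The list median was 1.36, with 0.99 on the regular (0.26 without CIA b) and 1.41 on the high-fat diet. Selp, the gene of P-selectin, had 2.47, 8.25 and 9.38 in regular-diet sham, 15.6, 54.6 and 19.4 in regular-diet CIA, 10.1 and 6.95 in high-fat sham and 185, 104 and 167 in high-fat CIA libraries, and CIA and sham did not overlap (3.15 ± 0.46 SE (adjusted p = 0.00622)). Sele, which codes for E-selectin, rose by 3.31 ± 0.63, and Itgb2, the beta chain of leukocyte integrins, by 1.61 ± 0.31. Of 20 endothelial and angiogenic genes 1 passed the test, Vegfc, a lymphatic growth factor, which fell (-0.62 ± 0.18).

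In the prostaglandin list 3 of 17 tested genes were called higher and 2 lower (median -0.05). These shares are near the 13% and 10.8% of all genes tested. Ptgs2, the inducible cyclooxygenase, had 0.239, 0.571 and 0.918 in regular-diet sham, 1.64, 18.8 and 1.29 in regular-diet CIA, 0.908 and 1.28 in high-fat sham and 29.3, 56.1 and 23.4 in high-fat CIA libraries, without overlap on either diet, and rose by 4.33 ± 0.81 SE (adjusted p = 0.00909). Pla2g4a, which frees arachidonic acid, rose by 1.18 ± 0.29, and the prostaglandin F receptor gene Ptgfr by 0.98 ± 0.30. The prostaglandin E receptor gene Ptger3 (-1.34 ± 0.39) and Ptges2 (-0.61 ± 0.18) fell.

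Proteases and matrix genes rose in part. Of 19 matrix metalloproteinase and inhibitor genes tested (of 21 listed) 7 rose and 1 fell, with a median of 0.62. It was 0.94 without high-fat sham a and 0.48 without regular-diet CIA b. By diet the median was 0.76 on the regular (0.32 without CIA b) and 0.97 on the high-fat diet. Mmp13, the collagenase that cuts type II collagen, had 4.93, 10.2 and 9.77 in regular-diet sham, 151, 753 and 13 in regular-diet CIA, 31.9 and 19.4 in high-fat sham and 487, 789 and 241 in high-fat CIA libraries. Sham and CIA did not overlap within a diet, although regular-diet CIA c was below both high-fat sham libraries, and the change was 4.75 ± 0.94 SE (adjusted p = 0.0102) (3.80 without regular-diet CIA b). Mmp3, or stromelysin, had 25.1, 47.5 and 43.9 in regular-diet sham, 57.6, 1610 and 12.3 in regular-diet CIA, 66.2 and 62.4 in high-fat sham and 2010, 800 and 773 in high-fat CIA libraries. Regular-diet CIA c was below all sham libraries, and 2010, 800 and 773 CPM in high-fat CIA stood against 66.2 and 62.4 in sham. The averaged change of Mmp3 was 4.03 ± 1.12 SE (adjusted p = 0.0291), or 2.03 without regular-diet CIA b. Mmp2 rose by 1.25 ± 0.31. Timp4, an inhibitor of these enzymes, fell, with -2.12 ± 0.53 SE (adjusted p = 0.0205). Of 16 ADAM and ADAMTS protease genes 12 passed the test, all higher (median 0.96, with 0.53, or 0.33 without CIA b, on the regular and 1.46 on the high-fat diet). Adam17, the sheddase that frees TNF from the membrane, had 46.9, 52.3 and 50.2 in regular-diet sham, 84, 73.8 and 66.2 in regular-diet CIA, 65.5 and 58 in high-fat sham and 138, 159 and 132 in high-fat CIA libraries. Its CIA libraries were higher on both diets without overlap (0.90 ± 0.11 SE (adjusted p = 0.00523)). Adamts12 (1.34 ± 0.18) and Adamts9 (1.19 ± 0.22) rose as well. Of 16 cathepsin and cystatin genes 5 rose, the lysosomal proteases Ctsw (1.67 ± 0.40), Ctss (1.61 ± 0.27), Ctsc (1.20 ± 0.29), Ctsk (1.17 ± 0.32) and Ctsh (0.61 ± 0.16). The inhibitor gene Cst3, of cystatin C, fell (-1.11 ± 0.30).

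Of 19 collagen genes outside cartilage 13 passed the test, all higher, with a median of 1.14. Of the 19, 3 were higher without overlap on either diet, against 8.98% of all genes tested. That median was 0.84 on the regular (0.32 without CIA b) and 1.41 on the high-fat diet. Col12a1, a fibril-associated collagen, had 4.37, 8 and 7.08 in regular-diet sham, 38.3, 195 and 34.7 in regular-diet CIA, 31.5 and 38.2 in high-fat sham and 798, 462 and 267 in high-fat CIA libraries. Each CIA library was above the sham libraries of its diet, by 3.82 ± 0.57 SE (adjusted p = 0.00634). Col1a1, the main collagen of bone and scar, rose by 2.05 ± 0.55, or 1.31 without regular-diet CIA b. Col8a1 (1.07 ± 0.19) and Col15a1 (1.15 ± 0.22) rose too. Of 20 collagen-modifying enzymes 4 passed the test, all higher, the crosslinking enzymes Lox (1.96 ± 0.45), Loxl2 (1.09 ± 0.24) and Loxl4 (0.72 ± 0.23) and the lysyl hydroxylase Plod2 (1.33 ± 0.32). The median of that list was 0.62, with 0.37 without regular-diet CIA b, and it turned to -0.22 with the adipocyte covariate, where 4 genes were called, all lower. Of 22 genes of fibroblast activation 10 rose and 1 fell (median 1.64). The median was 0.94 on the regular diet, or 0.05 without CIA b, and 1.71 on the high-fat diet. It was 0.35 with the adipocyte covariate. Without overlap on either diet 3 of the 22 were higher and 1 lower, against 8.98% and 9.41% of all genes tested. Thbs1, a matricellular protein, rose by 1.85 ± 0.32, and Tagln, an actin-binding protein of contractile cells, was the one that fell (-0.74 ± 0.16). In the smooth muscle and pericyte list Tagln and Des (-0.70 ± 0.17) fell, 2 of 12. In the list of 20 lining and sublining fibroblast genes 1 rose, Pdgfra, and 1 fell, the matrix gene Dpt (-1.12 ± 0.30). Beside these list counts, 13% of all genes tested were called higher and 10.8% lower.

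Osteoclasts resorb bone and form under RANKL, the product of Tnfsf11. Of 15 genes of osteoclasts and the RANKL axis 10 passed the test, all higher, with a median of 3.04. That median was 1.00 without regular-diet CIA b and 1.61 without high-fat CIA a, with 7 called higher in each. It was 1.27 with Calcr, which had no count in sham, set to a floor of 3 counts per library, and the same floor moved no other list median. Tnfsf11 had 0.398, 0.254 and 0.459 in regular-diet sham, 1.14, 29.2 and 0.771 in regular-diet CIA, 0.801 and 0.526 in high-fat sham and 61.2, 10.2 and 14.8 in high-fat CIA libraries. It did not overlap within a diet, but regular-diet CIA a and c were at 1.14 and 0.771 CPM, the latter below high-fat sham a. Its change was 5.10 ± 1.14 SE (adjusted p = 0.0144), or 3.39 without regular-diet CIA b. The osteoclast genes Atp6v0d2, a proton pump subunit, and Dcstamp, a fusion protein, rose by 3.04 ± 0.75 and 3.81 ± 0.98. Of 19 Wnt regulators tested, shares near those of all genes (13% and 10.8%) were called, with 3 higher, Rspo3 (1.97 ± 0.58), Wnt5b (1.59 ± 0.48) and Dkk3 (1.05 ± 0.27), and 2 lower, the decoy receptor gene Sfrp5 (-2.03 ± 0.31) and the target gene Axin2 (-1.22 ± 0.36). Of 16 osteoblast and bone matrix genes 3 passed the test, all higher, among them the bone transcription factor gene Runx2 (2.28 ± 0.42) and Col1a1. Of 17 cartilage genes tested 3 passed the test, all higher, Col11a1 (3.25 ± 0.64), Col9a1 (1.92 ± 0.44) and Acan (2.23 ± 0.66), the gene of aggrecan. Of all genes tested 13% were called higher. The cartilage median was 0.81 (-0.21 without regular-diet CIA c), with 1.88 on the regular and -0.55 on the high-fat diet, and Col2a1 was not called (0.83 ± 1.17 SE (adjusted p = 0.634)), at 0.291 to 535 CPM in CIA libraries. In the list of TGF-beta, activin and BMP genes 3 of 22 rose and 1 fell, the rises being near the 13% of all genes and the falls under the 10.8%. The activin gene Inhba rose by 1.99 ± 0.47 and Ltbp2, a binding protein of latent TGF-beta, by 1.86 ± 0.60, while Inhbb fell (-1.02 ± 0.24). Ltbp2 had 1.09 and an adjusted p of 0.0555 without regular-diet CIA b (0.0324 to 0.163 over the 11 fits). Grem1, a BMP antagonist, was called (3.16 ± 0.97), but had 1.89 and an adjusted p of 0.0709 without regular-diet CIA c (0.0272 to 0.154 over the 11 fits).

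**Figure D5:**
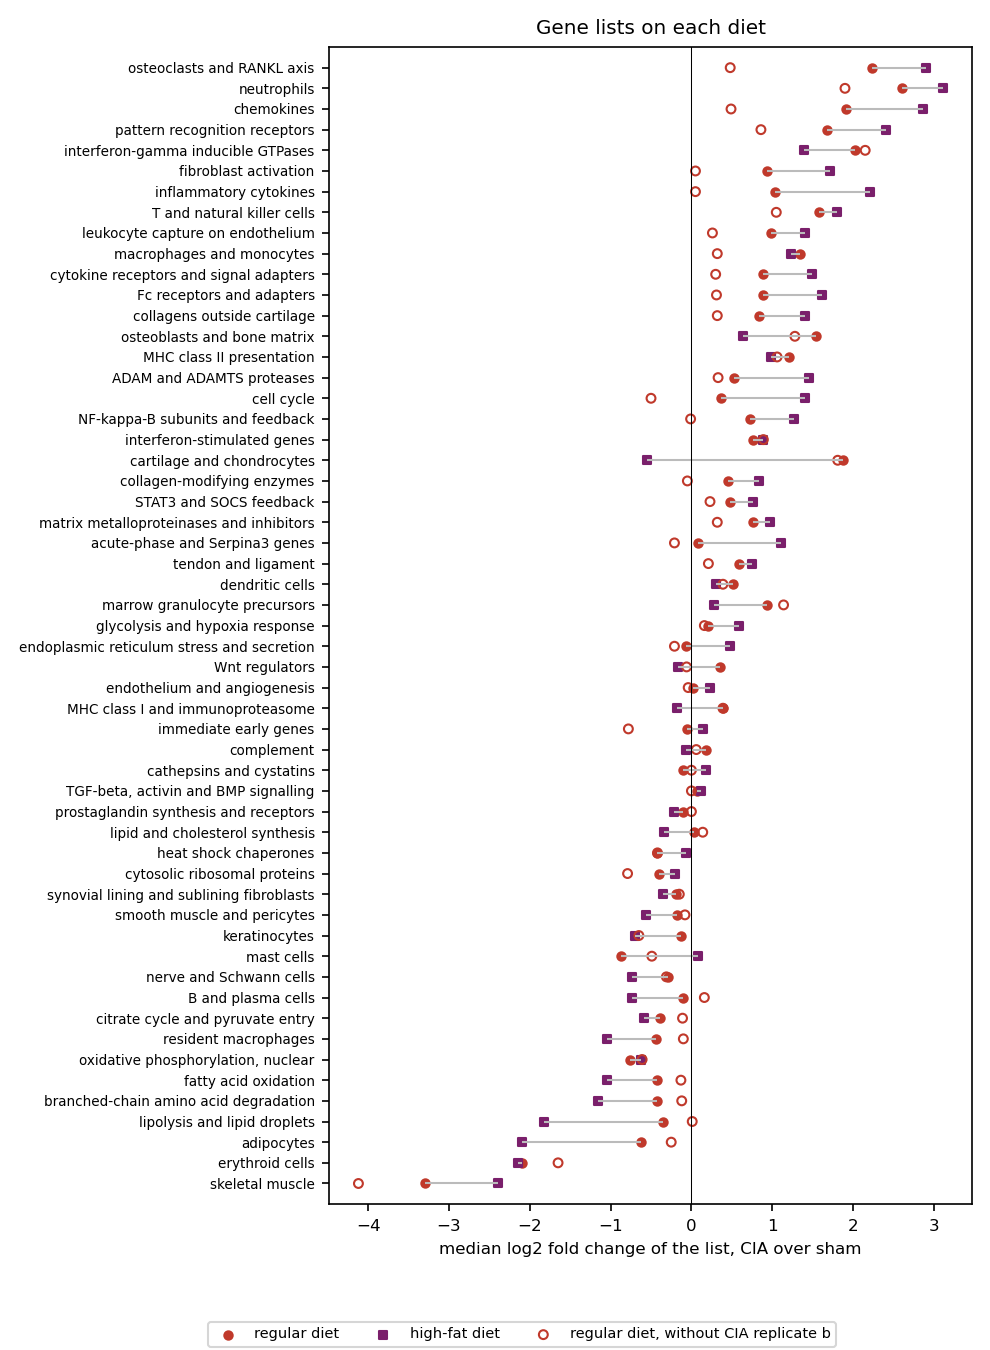
Each row is 1 of the 55 gene lists, with the median log2 fold change of its tested members (x axis) on the regular diet (filled circles), the high-fat diet (squares) and the regular diet without CIA replicate b (open circles), ordered by the median of the averaged effect. Most immune and matrix lists lie right of 0 on both diets, several regular-diet medians are near 0 without replicate b, and muscle, erythroid and adipocyte lists lie farthest left.

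In the lists of energy metabolism and fat most calls were falls. Of 26 nuclear genes of oxidative phosphorylation 18 passed the test, all lower, and 18 of the 26 were lower without overlap on either diet. Of all genes tested 10.8% were called lower and 9.41% lay lower without overlap. The list median was -0.69, with -0.76 on the regular and -0.62 on the high-fat diet. Cox4i1, a subunit of cytochrome c oxidase, had 1240, 855 and 906 in regular-diet sham, 479, 366 and 574 in regular-diet CIA, 486 and 542 in high-fat sham and 312, 248 and 222 in high-fat CIA libraries. All CIA libraries were below the sham libraries of their diet, by -1.03 ± 0.19 SE (adjusted p = 0.00835). Ndufs3, a subunit of complex I, changed by -0.89 ± 0.13 and Cox6c by -0.92 ± 0.18. With the adipocyte covariate 12 of the 26 were called lower (median -0.83), and with the muscle covariate 5 (median -0.76).

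Of 20 genes that break down branched-chain amino acids 14 passed the test, all lower (median -0.77). The median was -0.42 on the regular (-0.12 without CIA b) and -1.15 on the high-fat diet. With the adipocyte covariate 2 were called lower and 1 higher (median -0.23), and with the muscle covariate 2 were called lower (median -0.76). Bcat2, the mitochondrial transaminase that opens this pathway, had 286, 304 and 302 in regular-diet sham, 135, 108 and 212 in regular-diet CIA, 234 and 275 in high-fat sham and 46.8, 99.6 and 67.5 in high-fat CIA libraries, lower in CIA on each diet without overlap (-1.40 ± 0.23 SE (adjusted p = 0.00687)). Auh (-0.82 ± 0.11) and Acad8 (-0.54 ± 0.11) fell as well. Of 22 fatty acid oxidation genes 11 fell and 1 rose, Cpt1a (0.42 ± 0.12), the gatekeeper of fatty acid entry, with a list median of -0.70. By diet it was -0.43 on the regular (-0.13 without CIA b) and -1.04 on the high-fat diet. With the adipocyte covariate 1 was called lower and 1 higher (median -0.01), and with the muscle covariate 1 lower (median -0.67). Etfb, an electron carrier of this pathway, had 545, 314 and 360 in regular-diet sham, 218, 156 and 243 in regular-diet CIA, 242 and 245 in high-fat sham and 92.2, 97.7 and 83.2 in high-fat CIA libraries. No CIA library reached a sham library of its diet (-1.20 ± 0.18 SE (adjusted p = 0.00634)). Echs1 (-1.09 ± 0.21) and Eci1 (-1.13 ± 0.23) fell too. Of 23 genes of the citrate cycle and pyruvate entry 8 passed the test, all lower, among them the pyruvate carrier gene Mpc2 (-1.01 ± 0.23) and Sdhb (-0.73 ± 0.18). Their list median was -0.52, with -0.18 and 1 call, higher, under the adipocyte covariate and -0.54 and no edgeR call under the muscle covariate. On the regular diet it was -0.39, or -0.11 without CIA b, and on the high-fat diet -0.59. In the list of glycolysis and hypoxia genes 3 of 24 passed the test, all higher, a share near the 13% of all genes, Hif1a, the hypoxia-inducible factor (1.75 ± 0.30), the lactate exporter gene Slc16a3 (1.88 ± 0.52) and Car9 (1.15 ± 0.37).

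Of 18 adipocyte genes 12 passed the test, all lower, and all 18 had a value below 0, with a median of -0.63 on the regular (-0.25 without CIA b) and -2.10 on the high-fat diet. Adipoq, the gene of adiponectin, had 2640, 1910 and 2410 in regular-diet sham, 1380, 483 and 1570 in regular-diet CIA, 1300 and 1540 in high-fat sham and 81.3, 415 and 380 in high-fat CIA libraries. CIA was lower on both diets without overlap, by -1.65 ± 0.43 SE (adjusted p = 0.0242). Lep, the gene of leptin, had 173, 238 and 150 in regular-diet sham, 172, 39.4 and 244 in regular-diet CIA, 437 and 472 in high-fat sham and 17.7, 51.1 and 62.3 in high-fat CIA libraries. On the regular diet it overlapped and on the high-fat diet all CIA libraries were far below sham, with -0.30 ± 0.59 on the regular diet and -3.38 ± 0.68 on the high-fat diet and an average of -1.84 ± 0.45 SE (adjusted p = 0.0187). Adig (-1.92 ± 0.46), Cebpa (-1.34 ± 0.31) and Trarg1 (-1.48 ± 0.33) fell. Of 18 genes of lipolysis and lipid droplets 6 passed the test, all lower. G0s2, an inhibitor of the lipase ATGL, had 255, 195 and 206 in regular-diet sham, 65.5, 41 and 94.4 in regular-diet CIA, 297 and 306 in high-fat sham and 38.8, 59.5 and 70.3 in high-fat CIA libraries. Its CIA libraries were all below sham on both diets, and the change was -2.07 ± 0.23 SE (adjusted p = 0.00523), with -1.71 ± 0.31 on the regular diet and -2.42 ± 0.34 on the high-fat diet. With the adipocyte covariate, the mean of the 18 adipocyte genes, their median was -0.08, a value near 0 that was fixed in advance. G0s2, which is not among those genes, had -1.43 (adjusted p = 0.00749) with that covariate. Of 22 lipid and cholesterol synthesis genes 3 passed the test, all lower, near the 10.8% of all genes, Insig1 (-0.78 ± 0.22), Hmgcs1 (-0.59 ± 0.18) and Srebf1 (-0.94 ± 0.29).

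Retnla and Ccl24, of resident or alternatively activated macrophages, were among the 12 largest falls. These were ranked among called genes with a mean log2 CPM of at least 1 and no overlap on either diet. Of 16 such genes 6 fell (Retnla, Ccl24, Cd209d, Mgl2, Folr2 and Cd209g) and 1 rose. Retnla, a marker of alternatively activated mouse macrophages, had 113, 79 and 51 in regular-diet sham, 26.6, 6.87 and 29 in regular-diet CIA, 63.8 and 39.5 in high-fat sham and 0.175, 6.63 and 1.08 in high-fat CIA libraries. Both diets showed lower values in all CIA libraries, with -3.13 ± 0.66 SE (adjusted p = 0.0122), and the 3 high-fat CIA libraries were lowest. Ccl24, an eosinophil attractant made by such macrophages, had 11.6, 9.96 and 8.52 in regular-diet sham, 3.41, 0.851 and 1.74 in regular-diet CIA, 11.9 and 10.8 in high-fat sham and 0.0582, 0.964 and 1.5 in high-fat CIA libraries and fell, with -3.03 ± 0.54 SE (adjusted p = 0.00835). Cd209d, a lectin receptor, changed by -1.72 ± 0.36. Arg1, the arginase that the same list holds, went the other way with 0, 0.254 and 0 in regular-diet sham, 0.442, 3.93 and 0.129 in regular-diet CIA, 0.0534 and 0.234 in high-fat sham and 12.3, 121 and 26.2 in high-fat CIA libraries. On the regular diet replicate c overlapped sham, and the change was 6.21 ± 1.21 SE (adjusted p = 0.01).

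Among called genes with a mean log2 CPM of at least 1 and no overlap on either diet, the largest fall was that of Nnat, neuronatin, with 566, 558 and 284 in regular-diet sham, 135, 21.3 and 215 in regular-diet CIA, 795 and 1030 in high-fat sham and 24.9, 40.7 and 62 in high-fat CIA libraries. CIA was below sham on both diets without overlap (-3.17 ± 0.52 SE (adjusted p = 0.00692)), and the fall was -1.92 ± 0.68 on the regular diet and -4.42 ± 0.78 on the high-fat diet. Others among the 12 largest falls were the GABA transporter gene Slc6a13 (-2.50 ± 0.39), Gkn3 (-2.33 ± 0.41), Rprml (-2.14 ± 0.39), the synuclein gene Sncg (-2.11 ± 0.37), the small GTPase gene Rasd1 (-2.11 ± 0.43) and the peroxisomal membrane gene Pxmp2 (-2.01 ± 0.42). Hba-a2, an alpha globin gene, was among them as well (-2.80 ± 0.60), with 3 of 13 erythroid genes called lower, the others being Hba-a1 (-2.43 ± 0.67) and Hbb-bt. Hbb-bt, called at -2.39 ± 0.72, had -1.57 and an adjusted p of 0.18 without high-fat sham a (0.0291 to 0.18 over the 11 fits), and edgeR then called no erythroid gene. The large rises included Cd300lf (5.28 ± 1.27, 3.50 without regular-diet CIA b), an inhibitory myeloid receptor, Mefv (4.84 ± 1.16, 2.90 without that library), the gene of pyrin, Sirpb1c (4.68 ± 0.79) and Slfn4 (4.68 ± 0.97).

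Of 15 heat shock chaperone genes 6 passed the test, all lower, Hspb1, Cryab, Hspb8, Hspa1a, Hspa1b and Dnajb4. Hspb1, a small heat shock protein, had 102, 71.8 and 89.4 in regular-diet sham, 38.6, 40.5 and 48.2 in regular-diet CIA, 69.4 and 89 in high-fat sham and 22.1, 36.3 and 43.9 in high-fat CIA libraries, lower in all CIA libraries of each diet (-1.13 ± 0.18 SE (adjusted p = 0.00692)), and Cryab (-1.53 ± 0.25) and Hspb8 (-0.95 ± 0.17) fell with it. Of 22 genes of endoplasmic reticulum stress Ddit3 (-0.89 ± 0.15) and Herpud1 (-0.59 ± 0.14) fell and the sensor gene Atf6 (0.56 ± 0.16) rose. In the immediate early list Jund (-0.72 ± 0.15) and Jun (-0.60 ± 0.19) fell and Fosl2 (1.38 ± 0.33) rose, 3 of 21 in all. In this list and the endoplasmic reticulum list the falls were near the 10.8% of all genes called lower. The rises were under the 13% called higher. Of 8 mast cell genes tested 2 fell and 1 rose. Mcpt4, a mast cell protease, had 13.4, 9.01 and 11.1 in regular-diet sham, 2.97, 3.27 and 3.73 in regular-diet CIA, 11.4 and 8 in high-fat sham and 6.75, 5.85 and 8.23 in high-fat CIA libraries and changed by -1.12 ± 0.19 SE (adjusted p = 0.00728), with overlap on the high-fat diet. Cma1, another such protease, changed by -0.92 ± 0.23, while Hdc, the histamine-forming enzyme also made by neutrophils, rose by 3.19 ± 0.67. Of 21 skeletal muscle genes tested 10 passed the test, all lower, with a median of -2.86, or -0.67 and 2 calls without regular-diet sham c. Tnnc2, a troponin, fell (-4.53 ± 1.15 SE (adjusted p = 0.0221)), with -2.57 without that library, which held 54.5 CPM against 1.67 and 0.825 in a and b. Nerve genes gave 2 falls in 9 tested, with the myelin gene Pmp22 (-0.87 ± 0.23) among them, and the tendon list 2 rises in 10, Mkx (2.42 ± 0.59) and Thbs4 (1.80 ± 0.50). The mast cell, nerve and tendon lists are short, and 10.8% of all genes tested were called lower and 13% higher.

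The cell cycle and ribosomal protein lists had no call. Of 24 cell cycle genes edgeR called 0, although 23 had a value above 0 (median 0.96, 0.46 without regular-diet CIA b, 0.38 without high-fat CIA a, 0.60 without high-fat sham b, 1.56 and 1 call without high-fat sham a, and -0.85 with the adipocyte covariate, where 1 was called lower). At an unadjusted p under 0.05 there were 2 cell cycle genes, DESeq2 called 2 and limma voom 0. Mki67, a proliferation marker, had 65.9, 32.4 and 28.6 in regular-diet sham, 46, 133 and 23 in regular-diet CIA, 97.6 and 8 in high-fat sham and 263, 129 and 58.5 in high-fat CIA libraries. Its groups overlapped on both diets (1.09 ± 0.68 SE (adjusted p = 0.259)). Of 28 cytosolic ribosomal protein genes edgeR, DESeq2 and limma voom called 0 and an unadjusted p under 0.05 was reached by 0 (median -0.29). Of these 26 had a value below 0. With the adipocyte covariate 25 were called lower (median -1.02), and without regular-diet CIA b 2 were (median -0.49). Rplp0 had 0.08 ± 0.27 SE (adjusted p = 0.863) and Rpl10 -0.29 ± 0.20 SE (adjusted p = 0.31).

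Sizes on the diets were then set side by side for the called genes. Of the 3533 called genes of equal sign, 2949 had the larger log2 fold change on the high-fat and 584 on the regular diet, with a median size of 1.06 and 0.65. In the test of the difference itself edgeR called 0 of 14892 genes (0%), with 635 (4.26%) at an unadjusted p under 0.05 and a lowest adjusted p of 0.864. In the same test limma voom called 0 and DESeq2 22. Among the 3542 called genes 416 (11.74%) had an unadjusted p under 0.05 for the difference. The median SE of that difference was 0.39 over called genes, against 0.20 for the average. For Serpina3i the difference, high-fat minus regular, was 0.63 ± 0.53 SE (unadjusted p = 0.261), and for Ndufs3 -0.05 ± 0.27 SE (unadjusted p = 0.87). For Podn it was -1.29 ± 0.22 SE (unadjusted p = 0.00016) and for Kctd2 -0.85 ± 0.22 SE (unadjusted p = 0.00284), with a larger fall on the high-fat diet. For Mcpt4 it was 1.26 ± 0.39 SE (unadjusted p = 0.00845), with the larger fall on the regular diet. Serpina3f had -1.92 ± 0.86 SE (unadjusted p = 0.0503), with the larger rise on the regular diet.

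Opposite signs on the 2 diets occurred in 9 of the 3542 called genes. Lipg, endothelial lipase, had 7.87, 8.95 and 12.3 in regular-diet sham, 9.34, 4.84 and 14.1 in regular-diet CIA, 1.28 and 0.993 in high-fat sham and 12.8, 37.7 and 5.52 in high-fat CIA libraries, so sham and CIA overlapped on the regular diet while all high-fat CIA libraries were above sham. Its changes were -0.04 ± 0.61 on the regular diet and 4.03 ± 0.83 on the high-fat diet. Trib3, a stress-induced pseudokinase, had 13, 9.84 and 8.72 in regular-diet sham, 13.4, 6.81 and 20.1 in regular-diet CIA, 39.8 and 36.5 in high-fat sham and 5.88, 8.26 and 8.47 in high-fat CIA libraries. Its CIA libraries were lower on the high-fat diet, and those on the regular diet overlapped sham, with 0.35 ± 0.35 on the regular diet and -2.34 ± 0.39 on the high-fat diet. B3gnt3 had -0.24 ± 0.22 on the regular diet and 1.53 ± 0.26 on the high-fat diet and Crtac1 0.07 ± 0.50 on the regular diet and -2.98 ± 0.59 on the high-fat diet. In these 4 the regular-diet value was no larger than about its SE, so the sign on that diet was not resolved.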

How the data were processed

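RNA from synovial membrane was extracted with Trizol and sequenced from 11 libraries of BGI's in-house kit, per the labels' protocols. Strand is not mentioned there, so a gene and its antisense partner cannot be told apart. The authors deposited 1 table of 18804 genes with an expected count (read number estimated by the authors' counting) per library, per the file headers, and 11.98% of these values were not whole at a tolerance of 0.001. It also holds the authors' FPKM and TPM values and their log2 fold changes and q-values (adjusted p-values) per comparison, per the file headers. Of tools, RSEM 1.2.12, DESeq2 1.4.5 and Bowtie2 2.2.5 are named in the submitters' processing notes, with no role, beside the build GRCm38.p6.

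The table has 458 genes at 0 in every library and 1 empty line, and its counts were rounded to whole numbers. edgeR's filterByExpr kept 14892 genes, scaled with TMM and fitted with 1 mean per group (glmQLFit, robust). The averaged contrast was tested and Benjamini-Hochberg adjusted over all of them. The SE was derived from F, as the size of the log2 fold change over the square root of F. CPM use TMM-scaled totals, and overlap was read on log2 CPM with a prior count of 2. p-values are two-sided. Precision rests on the spread between few libraries per group, since the chi-square between replicates was 18.4 to 265.8 times its degrees of freedom, more than counting noise gives. Positions are from RefSeq GRCm38.p6, matched by gene ID for 18659 genes, since 1.77% of the deposited starts equal RefSeq's. Of 185 named genes 137 had an entry in RefSeq's promoter table.

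The members, the contrast and the 55 gene lists were chosen with earlier results of these data known. Genes were named by rule. Called genes with a symbol, no overlap on either diet and a mean log2 CPM of at least 1 were ranked, giving the 12 with the largest rise and fall and the 3 with the smallest p each way. Up to 3 called members were added per list, up to 4 genes of opposite sign, up to 2 members as values for lists without a call, and some marker and disease genes as values. Not all that qualify are named, and some are not reported here. Alternatives were DESeq2, limma voom and limma on log2(FPKM + 1) and log2(FPKM + 0.1), RLE and upper-quartile scaling, no filter and a filter of CPM of 1 in 3 libraries. The others were a replicate block, an additive model, the adipocyte or muscle list as a covariate, leaving out the 20 most abundant genes and leaving out each library. The fits were tested on simulated data. Python 3.11.15 with numpy 2.4.6 and pandas 2.3.3 was used beside R 4.3.3 with DESeq2 1.42.0, limma 3.58.1 and edgeR 4.0.16.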

Additional observations from a re-analysis of the deposited data

How the results depend on the processing

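The 3542 calls became 707 with the muscle covariate and 2 to 4347 with a library left out. In fits added after the data were seen, limma voom called 920 without high-fat sham a and 1 without b, and edgeR without robust estimation called 2 without b. The 3533 genes of equal sign became 707 with the muscle covariate and 2 to 4199 with a library left out. The 2243 without overlap became 1054 with the adipocyte covariate, 619 with the muscle covariate and 2 to 3237 with a library left out. The 4 genes called on both diets became 669 in DESeq2, 1 in limma voom, 7 on log2(FPKM + 0.1), 118 with the adipocyte and 0 with the muscle covariate, and 0 to 16 with a library left out. DESeq2 called 22 genes for the difference between the diets. Otherwise these counts stayed within 1.5 times under the alternatives run. The replicate block left 2623 calls. The letters a, b and c were not shown to pair libraries, since 5 of 15 same-letter pairs correlated above 0.1 (range -0.426 to 0.463). With the adipocyte covariate Sdc1 (-0.04) and, among genes not called, Rplp0 (-0.76), Htra4 (1.23) and Clic5 (1.87) reversed. Of 171 named called genes 98 lost their call with that covariate, 107 with the muscle covariate and 169 without high-fat sham b, and 0 to 67 in the other fits. The causes were not tested. Leaving out a high-fat sham library rests that group on 1 library, which is then assumed to vary like the other groups.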
